A study of Mus musculus with 12 samples.

Results

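The 10 genes described here are P2ry12, P2ry13, Tmem119, Sall1, Cx3cr1, Siglech, Gpr34, Olfml3, Fcrls and Slc2a5, chosen as the rows of the count table whose Ensembl gene carries these symbols. They are 10 of 46078 genes in the table, all 10 were found, and all 10 passed the filter on low counts. RNA was sequenced from spinal cord white matter of C57Bl6 mice that had been perfused and dissected by laser capture. The 4 groups were young naïve (6 weeks old), middle-aged naïve (8 months old), young injured and middle-aged injured mice. Injured mice had received lysolecithin, a detergent-like lipid that strips myelin, into the ventrolateral white matter 72 hours earlier, and naïve mice were uninjured. Each group had 3 pools of 5 mice, and the labels name no genetic change in any group. The study's text gives the ages, the time after injection and the pooling. As none of the 4 groups was injected with vehicle, the needle, the fluid and the lysolecithin cannot be told apart in an injury effect.

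Microglia are the resident macrophages of the central nervous system. In undisturbed tissue they hold a surveying state, kept by signals such as TGF-β and marked by a set of genes that most other macrophages express weakly or not at all. When microglia respond to damage this set is known to fall while phagocytic genes rise, and blood monocytes that enter a lesion bring myeloid RNA of their own. The tissue was not sorted, so that a value here is a share of the RNA of all white matter cells. Fewer microglia and less RNA per microglial cell cannot be told apart in such pools.

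The pools held 9834447 to 12807437 counts. For scale, 3 counts were worth 0.234 to 0.305 CPM, a gene's counts scaled to a common library total, and set no filter. Levels below are CPM scaled by TMM, a method that sets the typical gene to no difference between libraries. Differences are log2 fold changes from edgeR's quasi-likelihood test over 15866 genes, and a gene was called at a Benjamini-Hochberg adjusted p under 0.05. Middle-aged naïve replicate 2 stood apart, with a Pearson correlation over genes of 0.953 and 0.959 with the other pools of its group, against 0.977 or more for each other pair of pools within a group. Results that rest on this pool are given with and without it. The cell types of the tissue moved with injury. All 6 oligodendrocyte genes were lower at both ages, by a median log2 fold change of -2.10 in young and -2.39 in middle-aged mice, and 5 of 6 astrocyte genes were lower at each age. Over all genes tested, 26.3% were called lower in young and 29.3% in middle-aged mice, and 28.3% and 29.2% higher. All 8 genes of recruited monocytes were higher at both ages, and their summed level ranged from 2.46 to 3.35 CPM in young naïve, 6.09 to 11.6 CPM in middle-aged naïve, 484 to 605 CPM in young injured and 614 to 876 CPM in middle-aged injured pools. Ccr2, the chemokine receptor of these monocytes, was at 0 counts in every young naïve pool. The part of these cell types in the results on the 10 genes was not tested.

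The 10 genes did not move as one group in the lesions. In young mice 6 of 10 rose with injury, against 28.3% of all genes tested, and 1 of 10 fell, against 26.3%. In middle-aged mice 4 of 10 rose, against 29.2% of all genes, and 3 of 10 fell, against 29.3%. Without middle-aged naïve replicate 2 the middle-aged counts were 6 higher and 4 lower, against 4933 higher and 4712 lower of 16254 genes. Fcrls, Olfml3, Gpr34 and Cx3cr1 rose and Sall1 fell at both ages. The median log2 fold change of the 10 genes was 1.81 in young and 0.16 in middle-aged mice, and that of all genes tested was 0.0005 in young and -0.03 in middle-aged mice. The middle-aged median of the 10 genes was 0.95 without middle-aged naïve replicate 2. With libraries scaled by their totals alone, the median of all genes moved to 0.20 in young and 0.08 in middle-aged mice, and the calls over all genes in young mice moved from 4483 higher and 4177 lower to 5380 higher and 3236 lower. Single genes are given first by the class of protein they encode, starting with the surface receptors for nucleotides and lipids.

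**Figure D1:**
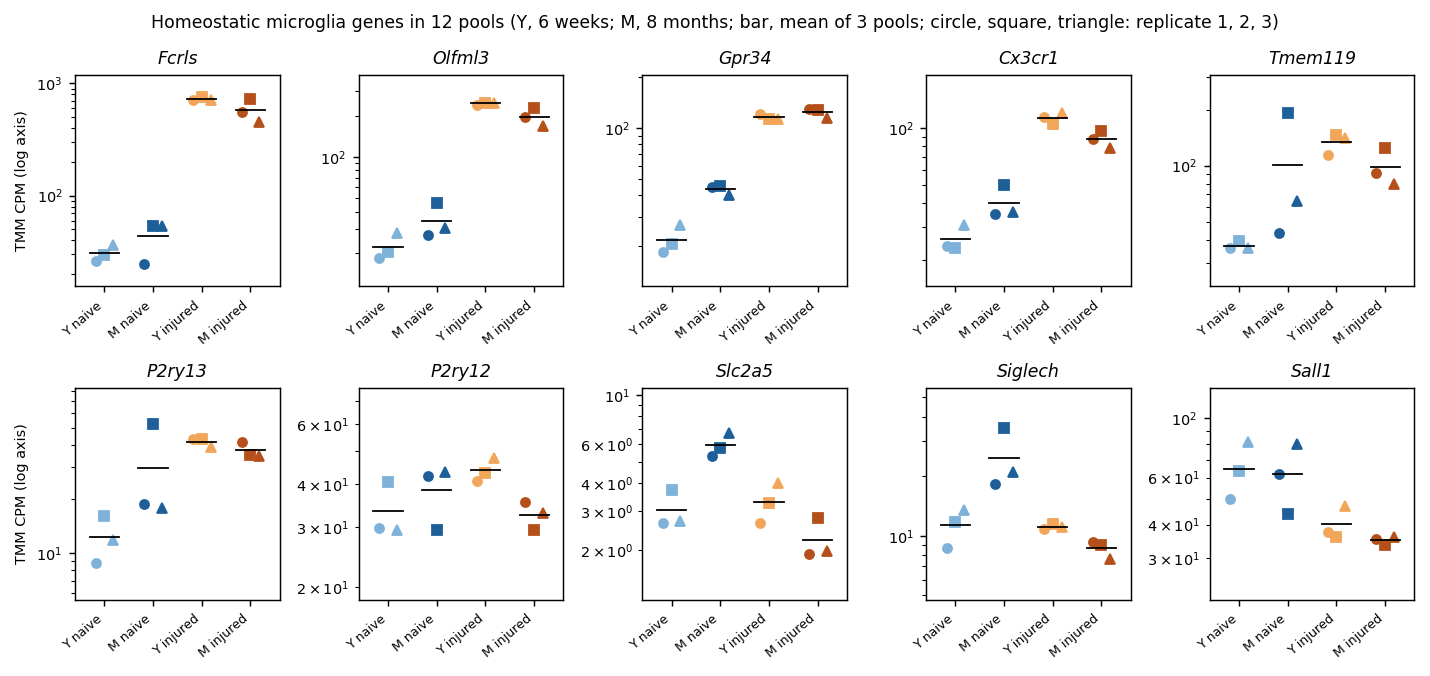
Level of each gene in CPM scaled by TMM (log axis, with its own range per panel) in the 12 pools, where a symbol is a pool of 5 mice and a bar the mean of 3 pools. Panels run from the highest to the lowest injury effect in young mice, with Fcrls at 26.1 to 36.0 CPM in young naïve and 709 to 749 CPM in young injured pools, and Sall1 lower in every injured pool of an age than in every naïve pool of that age.

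P2ry12 encodes a receptor for ADP through which microglia extend their processes towards damaged cells, and is among the most used markers of homeostatic microglia. Its level was 29.8, 40.6 and 29.5 CPM in the young naïve pools and 40.9, 43.0 and 47.8 CPM in the young injured pools. In middle-aged mice it was 42.3, 29.4 and 43.4 CPM in naïve and 35.4, 29.5 and 33.0 CPM in injured pools. All 3 young injured pools thus lay above the young naïve pools, by the narrow gap of 40.6 to 40.9 CPM, and the middle-aged pools overlapped. The log2 fold change was 0.40 ± 0.18 (SE, n = 3 pools a group) in young mice, with an edgeR adjusted p of 0.0681. In middle-aged mice it was -0.24 ± 0.18, with an edgeR adjusted p of 0.264 and a 95% interval of -0.61 to 0.14. Neither passed the threshold. In young mice it did without young naïve replicate 2 (0.57, edgeR adjusted p = 0.0222). Without middle-aged naïve replicate 2 both did, with P2ry12 higher by 0.40 in young mice (edgeR adjusted p = 0.0243) and lower by a log2 fold change of -0.39 in middle-aged mice (edgeR adjusted p = 0.0434). Over 8 other processing settings the young estimate ranged from 0.35 to 0.60, and 2 of the 8 called P2ry12 higher. In middle-aged mice all 8 kept the direction without a call.

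P2ry13 encodes a second receptor for ADP and is the neighbour of P2ry12 on the chromosome. The young naïve pools held 8.75, 16.1 and 11.7 CPM and the young injured pools 43.2, 43.1 and 38.9 CPM, with no overlap. In young mice the log2 fold change of P2ry13 was 1.77 ± 0.35 (SE, n = 3 pools a group, edgeR adjusted p = 0.000558). In middle-aged mice the naïve pools held 18.8, 52.1 and 17.8 CPM and the injured pools 41.8, 35.1 and 34.9 CPM, so that 1 naïve pool lay above all injured ones. The log2 fold change there was 0.34 ± 0.33 (edgeR adjusted p = 0.397). Without that naïve pool, replicate 2, it was 1.03 with an edgeR adjusted p of 0.000532.

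Although they are neighbours, P2ry12 and P2ry13 did not keep their proportion. The young naïve pools held 3.41, 2.52 and 2.51 P2ry12 counts for each P2ry13 count, and the young injured pools 0.947, 0.998 and 1.23. The middle-aged naïve pools held 2.25, 0.563 and 2.43, and the middle-aged injured pools 0.845, 0.839 and 0.946. Apart from middle-aged naïve replicate 2, every naïve pool was above every injured pool. This ratio was chosen after the values were seen and was not tested.

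Gpr34 encodes a receptor for lysophosphatidylserine, a lipid exposed on damaged membranes, and belongs to the same receptor family. It was at 18.6, 20.7 and 26.7 CPM in young naïve and 121, 112 and 113 CPM in young injured pools. In middle-aged mice it was at 44.9, 45.5 and 40.3 CPM in naïve and 129, 127 and 115 CPM in injured pools. The 4 groups did not overlap by injury at either age, and the middle-aged naïve pools lay between the young naïve and the injured ones. Gpr34 rose by 2.40 ± 0.14 in young mice (edgeR adjusted p = 5.58e-09). In middle-aged mice it rose 2.84-fold, with an SE of 0.13 on the log2 scale (edgeR adjusted p = 2.98e-07).

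Of the other receptors of this family, Gpr171, an orphan receptor expressed by lymphoid and myeloid cells, rose at both ages, by 1.75 ± 0.53 in young mice (edgeR adjusted p = 0.0122) and by 3.95 ± 0.57 in middle-aged mice (edgeR adjusted p = 3.25e-05). P2ry14, the receptor for UDP-glucose, and Gpr82, the neighbour of Gpr34, were not called at either age, with log2 fold changes of 0.77 and 0.78 in young and 1.28 and 1.51 in middle-aged mice. In middle-aged naïve replicate 2, Gpr171 was at 0 counts and P2ry14 at 3 counts.

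Cx3cr1 encodes the receptor for fractalkine, the neuronal ligand made from Cx3cl1, and is expressed by microglia and also by monocytes. Its level was 23.8, 23.2 and 30.6 CPM in young naïve and 115, 105 and 120 CPM in young injured pools. It was 34.9, 49.6 and 36.0 CPM in middle-aged naïve and 87.8, 96.1 and 78.6 CPM in middle-aged injured pools. The injured pools lay above the naïve pools at both ages. Cx3cr1 rose by 2.13 ± 0.16 in young mice (edgeR adjusted p = 7.63e-08) and by 1.12 ± 0.16 in middle-aged mice (edgeR adjusted p = 2.66e-05). Its ligand gene moved the other way. Cx3cl1 fell by 1.17 ± 0.19 on the log2 scale in young mice and by 1.86 ± 0.20 in middle-aged mice, with edgeR adjusted p of 0.000139 and 1.84e-06. Neuron genes fell as well, 4 of 6 at each age against 26.3% and 29.3% of all genes, with medians of -1.28 and -1.64. In middle-aged mice 1 of the 6 rose. Whether Cx3cl1 changed apart from neuronal RNA was not tested.

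Fcrls encodes an Fc receptor-like scavenger receptor of mouse microglia and had the largest injury effect of the 10 genes at both ages. It was at 26.1, 29.8 and 36.0 CPM in young naïve and 710, 749 and 709 CPM in young injured pools. In middle-aged mice it was at 24.9, 53.2 and 53.2 CPM in naïve and 553, 728 and 450 CPM in injured pools. The lowest injured pool, at 450 CPM, was far above the highest naïve pool, at 53.2 CPM. Fcrls rose by 4.56 ± 0.27 in young mice (23.6-fold, edgeR adjusted p = 7.09e-09) and by 3.72 ± 0.26 in middle-aged mice (13.2-fold, edgeR adjusted p = 2.81e-08). Of all genes tested, 2.88% in young and 4.03% in middle-aged mice had a higher log2 fold change.

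Siglech encodes a sialic acid-binding receptor that is shared by microglia and plasmacytoid dendritic cells. It was at 8.65, 11.8 and 13.5 CPM in young naïve and 10.8, 11.5 and 11.1 CPM in young injured pools, which overlapped. The log2 fold change in young mice was -0.03 ± 0.24, with an edgeR adjusted p of 0.939 and a 95% interval of -0.55 to 0.50. It was at 18.3, 34.9 and 21.0 CPM in middle-aged naïve and 9.30, 9.02 and 7.60 CPM in middle-aged injured pools. Siglech fell by 1.51 ± 0.25 on the log2 scale in middle-aged mice (2.86-fold lower, edgeR adjusted p = 0.000101), and by 1.18 without middle-aged naïve replicate 2 (edgeR adjusted p = 0.000124). Of the plasmacytoid dendritic cell genes, Ly6d had at most 2 counts and Klk1 at most 1 count in any pool, Ccr9 was not called at either age, and Irf7 and Bst2, which other cells induce in response to interferon, rose at both ages. Tcf4, a transcription factor gene that many other cell types express, was at a group mean of 605 to 662 CPM and was not called at either age (-0.08 in young and -0.02 in middle-aged mice). Of the 4 genes tested 2 rose at each age, against 28.3% of all genes in young and 29.2% in middle-aged mice. Which cells supplied the Siglech RNA was not tested.

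Tmem119 encodes a transmembrane protein used to tell microglia from monocyte-derived macrophages. Its level was 35.9, 39.4 and 36.2 CPM in young naïve and 115, 146 and 140 CPM in young injured pools, with no overlap. Tmem119 rose by 1.85 ± 0.39 in young mice (3.59-fold, edgeR adjusted p = 0.00115). The middle-aged naïve pools held 43.6, 193 and 64.6 CPM and the middle-aged injured pools 91.3, 124 and 79.9 CPM. A single naïve pool lay above all injured pools and the other naïve pools below them. The log2 fold change in middle-aged mice was -0.02 ± 0.38, with a 95% interval of -0.83 to 0.79 and an edgeR adjusted p of 0.966. Without replicate 2 of the middle-aged naïve group it was 0.87, with an edgeR adjusted p of 0.00164.

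Olfml3 encodes a secreted olfactomedin-like glycoprotein. It was at 18.3, 20.4 and 28.1 CPM in young naïve and 240.3, 247 and 248 CPM in young injured pools. It was at 26.9, 46.1 and 30.5 CPM in middle-aged naïve and 195, 228 and 167 CPM in middle-aged injured pools, again with no overlap. Olfml3 rose by 3.47 ± 0.21 in young mice (edgeR adjusted p = 8.80e-09) and by 2.51 ± 0.20 in middle-aged mice (5.71-fold, edgeR adjusted p = 1.15e-07).

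Sall1 encodes a zinc finger transcription factor that holds microglial identity in the adult and was the only gene of the 10 that fell at both ages. It was at 49.7, 63.3 and 81.4 CPM in young naïve and 37.7, 36.0 and 46.9 CPM in young injured pools. It was at 61.8, 44.0 and 80.2 CPM in middle-aged naïve and 35.4, 33.5 and 36.0 CPM in middle-aged injured pools. Every injured pool was below every naïve pool of its age. Over the 6 naïve pools the Pearson r of Sall1 with the other genes ranged from -0.51 (Tmem119) to 0.44 (P2ry12). Over the 6 injured pools it ranged from -0.54 (Gpr34) to 0.80 (P2ry12). Which cells supplied the Sall1 RNA was not tested. Sall1 fell by 0.69 ± 0.21 on the log2 scale in young mice (1.61-fold lower, edgeR adjusted p = 0.0127) and by 0.83 ± 0.21 in middle-aged mice (1.78-fold lower, edgeR adjusted p = 0.00386). The call in young mice was lost without young naïve replicate 3 (-0.49, edgeR adjusted p = 0.0739), without young injured replicate 1 (-0.64, edgeR adjusted p = 0.051), without young injured replicate 2 (-0.61, edgeR adjusted p = 0.0583) and with libraries scaled by their totals (-0.49, edgeR adjusted p = 0.0732).

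Slc2a5 encodes the fructose transporter GLUT5, which microglia carry within the brain and spinal cord, and had the lowest counts of the 10 genes, 23 to 84 a pool. It was at 2.64, 3.72 and 2.69 CPM in young naïve and 2.64, 3.26 and 3.99 CPM in young injured pools, with a log2 fold change of 0.13 ± 0.29 (edgeR adjusted p = 0.744, 95% interval -0.50 to 0.75). It was at 5.28, 5.77 and 6.72 CPM in middle-aged naïve and 1.91, 2.79 and 1.99 CPM in middle-aged injured pools. Slc2a5 fell by 1.41 ± 0.29 on the log2 scale in middle-aged mice (2.65-fold lower, edgeR adjusted p = 0.000861). For the pool with 23 counts of 11626777, the exact binomial (Clopper-Pearson) 95% interval was 1.25 to 2.97 CPM of the library total, which covers counting error only.

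**Figure D2:**
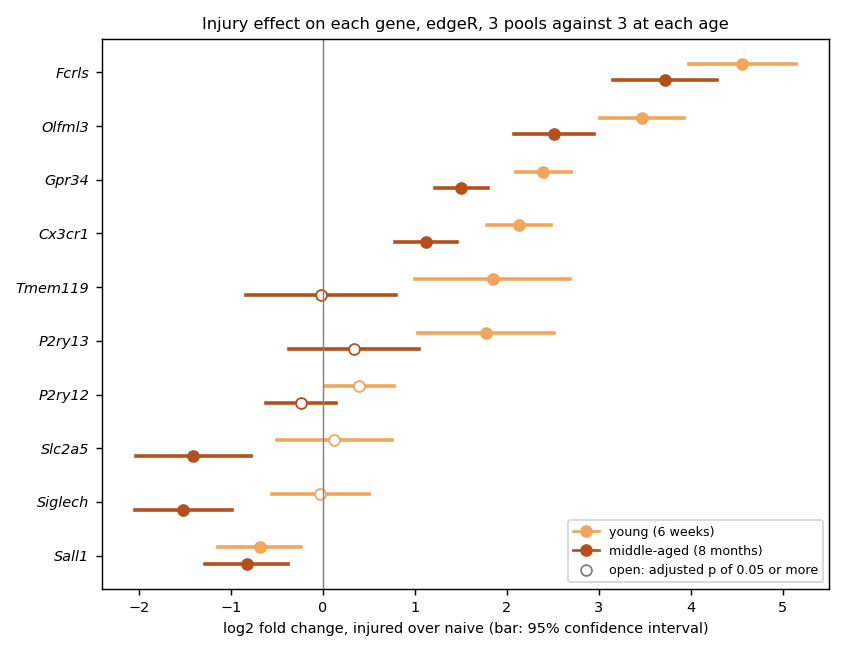
Injury effect on each gene as the log2 fold change of injured over naïve pools at each age, with its 95% confidence interval as a bar, where filled points passed an adjusted p of 0.05 and open points did not. Fcrls (4.56 in young and 3.72 in middle-aged mice) is the highest gene at both ages, Sall1 (-0.69) is the lowest in young mice and Siglech (-1.51) in middle-aged mice, and the middle-aged point is to the left of the young point for each gene.

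In naïve white matter 3 of 10 were called higher at 8 months, against 2.02% of all genes tested, and 0 of 10 were called lower, against 1.78%. Gpr34 was higher by 0.99 ± 0.14 (edgeR adjusted p = 0.00148), Siglech by 1.13 ± 0.24 (edgeR adjusted p = 0.021) and Cx3cr1 by 0.64 ± 0.16 (edgeR adjusted p = 0.0428). Without middle-aged naïve replicate 2 the call of Cx3cr1 was lost (0.46, edgeR adjusted p = 0.0932). The calls of Gpr34 and Siglech were kept without that pool, at 0.96 and 0.80 with edgeR adjusted p of 0.00222 and 0.0373. P2ry13, Tmem119 and Slc2a5 had log2 differences of 1.27, 1.43 and 0.97 with edgeR adjusted p of 0.0577, 0.0596 and 0.0839, and their middle-aged naïve pools lay above the young naïve ones. With replicate 2 of the middle-aged naïve group left out these differences were 0.58, 0.54 and 0.99, with edgeR adjusted p of 0.132, 0.144 and 0.0903. In all, 6 of 10 had higher, non-overlapping middle-aged pools, against 7.77% of all genes. The median of the 10 genes was 0.80 against 0.01 over all genes, and 0.50 without that pool. General myeloid genes were also higher in middle-aged naïve mice, where 8 of the 12 pan-myeloid genes were called, with a median of 1.14. No gene of the 10 was called when the 6 naïve pools were fitted alone, where 26 of 14401 genes were called higher. DESeq2 called 6 higher, against 600 of 27172 genes. Of the single pools, 1 gene was called without young naïve replicate 1 or without young naïve replicate 2. Over all genes 136 were called higher in each of these fits, of 16287 and 16288. Without middle-aged naïve replicate 3 there were 5, against 404 of 16222 genes. Without middle-aged naïve replicate 1 there were 7, against 484 of 16245 genes.

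In the lesions the age difference pointed the other way without reaching the threshold. Of the 10 genes, 9 had estimates below 0, against 49.7% of all genes, with a median of -0.34 against 0.00 over all genes. None was called by edgeR, against 1.15% of all genes, or by DESeq2, against 141 higher and 305 lower of 27172 genes. At an unadjusted edgeR p under 0.05 there were 2 lower genes, against 6.45% of all genes, namely P2ry12 at -0.43 ± 0.17 and Cx3cr1 at -0.37 ± 0.15. The pools of P2ry12, Sall1, Cx3cr1, Siglech and Olfml3 were lower in every middle-aged than in every young lesion, which is 5 of 10 against 12.2% of all genes. Gpr34 was the single gene with an estimate above 0, at 0.10 ± 0.13. The pan-myeloid genes had a median of 0.37 in this comparison, and none of the 12 was called.

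**Figure D3:**
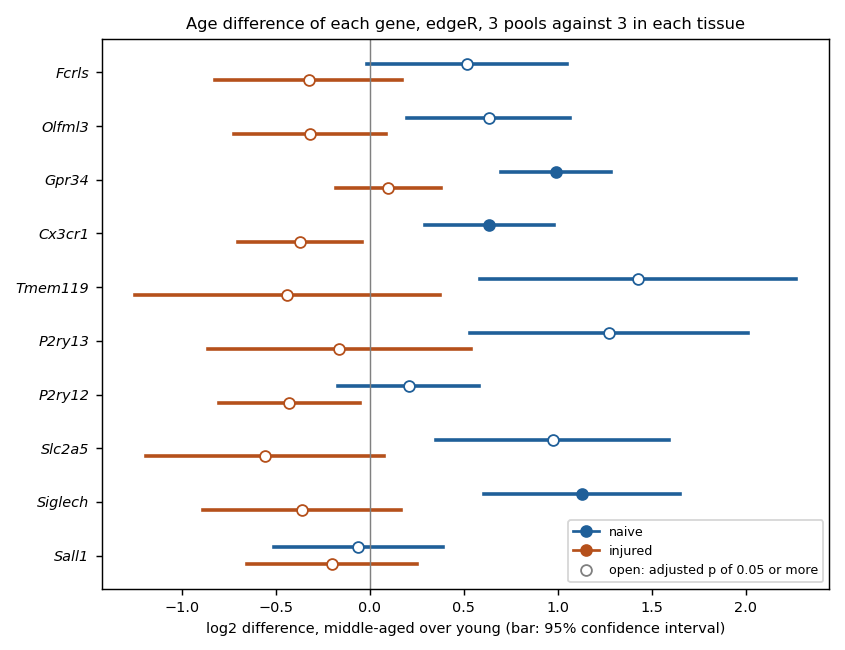
Age difference of each gene as the log2 difference of middle-aged over young pools, in naïve and in injured tissue, with its 95% confidence interval as a bar, where filled points passed an adjusted p of 0.05. In naïve tissue 1 of 10 estimates lies below 0, against 48% of all genes, and in injured tissue 9 of 10 do, against 49.7%.

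The test of whether the injury effect differed between ages uses the same 12 pools as the comparisons above, so that the higher middle-aged naïve levels enter it. The injury effect was lower in middle-aged than in young mice for each of the 10 genes, with differences from -0.14 for Sall1 to -1.87 for Tmem119 and a median of -0.98. Over all genes 54.7% of estimates were below 0, with a median of -0.05. None of the 10 was called by edgeR, against 0.139% of all genes, where the lowest adjusted p was 0.0874 for Gpr34. At an unadjusted edgeR p under 0.05 there were 9 genes, all but Sall1, against 6.09% of all genes with a lower effect. DESeq2 called 3 of them, Cx3cr1 (adjusted p = 0.00833), Siglech (adjusted p = 0.0107) and Gpr34 (adjusted p = 0.00278). Over all genes it called 144 of 27172 with a lower effect. For Siglech and Slc2a5 the fall seen in middle-aged mice and the near-zero estimate in young mice differed by -1.49 ± 0.34 and -1.53 ± 0.41, with edgeR adjusted p of 0.119 and 0.166. Without middle-aged naïve replicate 2, the difference for Tmem119 was -0.98 and that for P2ry13 was -0.75 in place of -1.43. Without young naïve replicate 3, 1 of the 10 was called, Gpr34 at -1.05 (edgeR adjusted p = 0.04), against 13 lower of 16283 genes.

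The proportions among the 10 genes changed with injury. Fcrls made up 11.7% ± 0.54 (SD, n = 3) of their summed counts in young naïve pools and 49.1% ± 1.08 in young injured pools. In middle-aged mice its share was 10.3% ± 2.95 in naïve and 47.7% ± 3.44 in injured pools. Sall1 went from 24.5% ± 2.67 to 2.73% ± 0.39 in young mice, and from 15.8% ± 6.86 to 2.99% ± 0.61 in middle-aged mice. P2ry12 went from 12.8% ± 2.63 to 2.98% ± 0.21 in young mice, although its own level did not pass the test. Olfml3 went from 8.43% ± 0.96 to 16.7% ± 0.14 in young mice. These shares are descriptions and are bound to each other, since they sum to the whole.

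Compared per kilobase of exon, the order of levels was different in naïve and injured tissue. Exon length was that of all annotated transcripts of a gene merged, from 2090 bases for Gpr34 to 6161 bases for Olfml3. Which transcripts the tissue expressed was not tested. A shorter expressed transcript would raise the level per kb, so the order across genes depends on this choice, for Olfml3 most. Per the study's text, RNA was amplified as libraries were made. Whether amplification changed proportions between genes, here and in the shares and count ratios above, was not tested. Tmem119 ranked first by mean in both naïve groups, at 16.1 ± 0.84 CPM per kb in young and 43.3 ± 34.9 CPM per kb in middle-aged mice (SD, n = 3). The young Tmem119 pools ranged from 15.51 to 17.03 CPM per kb and overlapped those of P2ry12, at 11.57 to 15.95 CPM per kb. The middle-aged Tmem119 pools ranged from 18.8 to 83.2 CPM per kb and overlapped those of Gpr34, the next gene, at 19.3 to 21.8 CPM per kb. Without middle-aged naïve replicate 2 the mean was 23.4 CPM per kb for Tmem119 and 20.4 CPM per kb for Gpr34. In young naïve pools Fcrls, P2ry12, Sall1 and Gpr34 followed at 13.1, 13.1, 12.3 and 10.5 CPM per kb, and each overlapped with the next over the pools, so that their order is not set beyond the spread. Below them came Cx3cr1, P2ry13, Olfml3, Siglech and Slc2a5, the last at 0.886 CPM per kb. In both injured groups Fcrls ranked first with no overlap with the next gene, at 309.7 ± 9.81 CPM per kb in young and 247 ± 60.4 CPM per kb in middle-aged mice. Tmem119 and Gpr34 followed in young lesions at 57.8 and 55.3 CPM per kb, which overlapped, and Gpr34 came before Tmem119 in middle-aged lesions. Slc2a5 ranked last in all 4 groups. Olfml3 had rank 8 in young naïve, rank 9 in middle-aged naïve and rank 4 in both injured groups.

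The pan-myeloid genes, which microglia and monocyte-derived cells both express, give a scale for these levels. All 12 rose at both ages, against 28.3% and 29.2% of all genes, with a median log2 fold change of 4.13 in young and 3.53 in middle-aged mice. They ran from Aif1, which encodes Iba1, at 3.32 and 2.54, to the lysosomal gene Cd68 at 6.90 and 5.50. Together they took 0.0171% to 0.024% of counts in young naïve, 0.036% to 0.0514% in middle-aged naïve, 0.435% to 0.484% in young injured and 0.472% to 0.651% in middle-aged injured pools. Each of the 10 genes was set against the summed counts of these 12 genes in its own pool. A ratio that falls says that the gene rose less than the pan-myeloid sum. It does not say whether microglia lost RNA of the gene or cells without it joined the pool, which cannot be told apart here.

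Against this scale 9 of the 10 genes were lower in every injured pool than in every naïve pool of the same age. So were 89.8% of all genes tested, since the pan-myeloid sum itself rose, and the direction of the 9 genes is therefore no result about them. The sizes are given as a description, and they hold the rise of the sum itself. The group mean of the sum went from 219 to 4243 CPM in young and from 456 to 5616 CPM in middle-aged mice. A gene with an unchanged level is lower on this scale by the factor of that rise. A size is therefore no measure of a loss of the gene, and P2ry12 was called at neither age. P2ry12 went from 16.4, 18.3 and 11.6 counts per 100 pan-myeloid counts in young naïve to 1.02, 0.944 and 1.15 in young injured pools, and from 11.4, 5.26 and 9.89 to 0.563, 0.495 and 0.716 in middle-aged pools. Sall1 went from 27.3, 28.6 and 32.1 to 0.940, 0.791 and 1.13 in young and from 16.7, 7.87 and 18.3 to 0.564, 0.562 and 0.781 in middle-aged pools. Averaged over both ages, the ratio was 25.9-fold lower in injured pools for Siglech, 25.7-fold for Sall1, 24.3-fold for Slc2a5 and 14.5-fold for P2ry12. It was 7.55-fold lower for Tmem119, 6.94-fold for P2ry13, 5.00-fold for Cx3cr1, 4.01-fold for Gpr34 and 1.93-fold for Olfml3.

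Fcrls was the exception. The young naïve pools held 14.4, 13.5 and 14.2 Fcrls counts per 100 pan-myeloid counts and the young injured pools 17.7, 16.4 and 17.0. The middle-aged naïve pools held 6.70, 9.52 and 12.1 and the middle-aged injured pools 8.79, 12.2 and 9.76, which overlapped. The log2 ratio was higher in injured pools by 0.21 over both ages (2-sided exact permutation p = 0.155). With the macrophage gene Cd68 left out of the reference the difference was 0.44, and the count of genes that were higher went from 0 to 1. The same count came without middle-aged naïve replicate 3, with a difference of 0.31. Over 14 changes of the reference or of the added count the Fcrls difference ranged from 0.03 to 0.44. With each pool left out it ranged from 0.10 to 0.31.

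**Figure D4:**
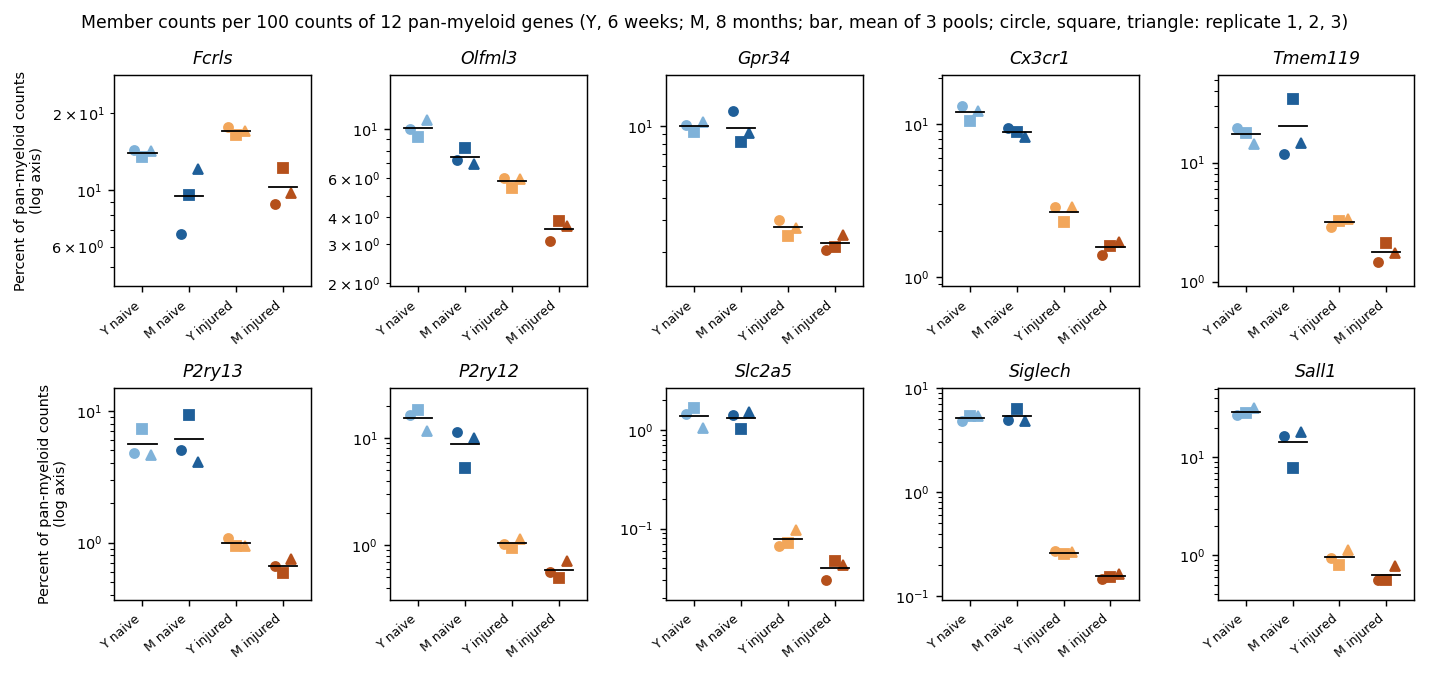
Counts of each gene per 100 counts of the 12 pan-myeloid genes in the same pool (log axis, with its own range per panel), where a symbol is a pool and a bar the mean of 3 pools. In 9 panels the injured pools lie below the naïve pools of their age, and in the Fcrls panel young pools went from 13.5 to 14.4 up to 16.4 to 17.7.

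Other genes of the homeostatic program, from a wider list of 23 genes of which 20 were tested, also split. In young mice 15 rose and 2 fell with injury, with a median log2 fold change of 1.92, and in middle-aged mice 15 rose and 3 fell, with a median of 1.85. The shares over all genes were 28.3% higher and 26.3% lower in young and 29.2% higher and 29.3% lower in middle-aged mice. Among the highest in young mice was P2ry6, the UDP receptor tied to phagocytosis, at 3.88 in young and 3.49 in middle-aged mice. The lowest were Bin1, a membrane-bending protein, at -0.82 and -1.04, and Adgrg1, an adhesion receptor, at -0.71 and -0.74. P2ry6, Bin1 and Adgrg1 were each called at both ages with the direction of their estimates. Both Bin1 and Adgrg1 are also expressed by cells of the oligodendrocyte lineage. Genes of disease-associated microglia, a state seen around damage, rose in 12 of 12 cases at both ages, with medians of 5.01 and 3.62. Genes of border macrophages, which line vessels and meninges, rose in 5 of 6 cases at each age, with medians of 4.22 and 3.44.

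The ligands and signalling partners of the 10 genes were described from a list of 14 genes. At each age 9 rose and 2 fell, with medians of 1.02 and 1.05. Over all genes 28.3% rose in young and 29.2% in middle-aged mice, and 26.3% and 29.3% fell. Nrros, which holds latent TGF-β on microglia, rose by 4.32 in young mice, and Tgfb1, which encodes the cytokine, by 4.30, and both were also called higher in middle-aged mice. Cx3cl1 fell as given above, and Itgb8, a subunit of the integrin that activates TGF-β, fell by 0.89 and 0.65 on the log2 scale. The platelet genes, fixed because platelets also carry P2Y12, summed to 0.4 to 1.83 CPM over all pools and none of 5 passed the filter. The summed level of 5 neutrophil genes was 0 to 0.64 CPM in naïve and 9.94 to 26.6 CPM in injured pools. Of the 5, 2 were tested and rose at both ages. These 2 passed the filter through the injured pools alone, so the filter itself set the direction of their change.

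**Figure D5:**
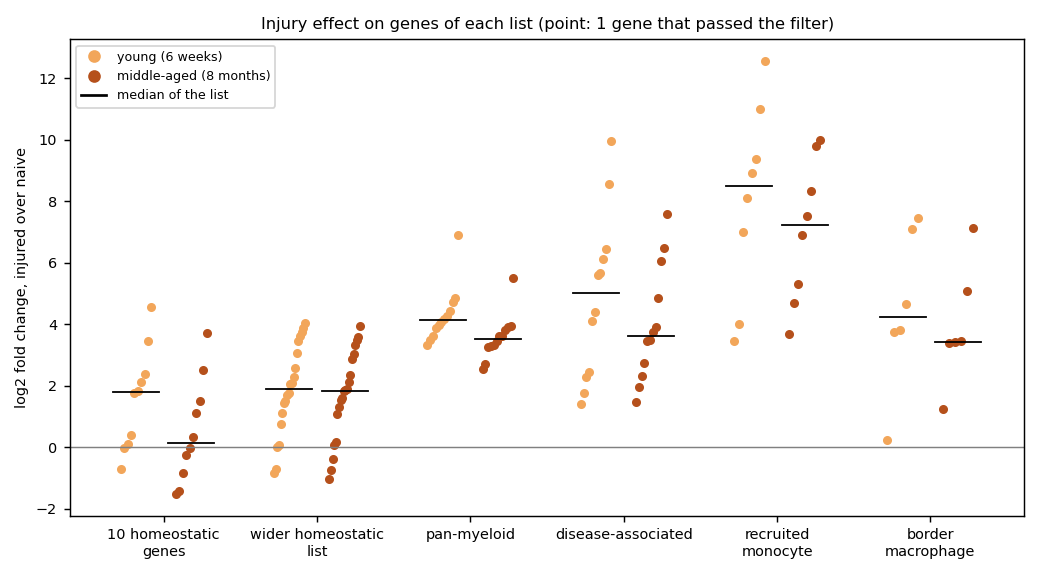
Log2 fold change of injured over naïve pools for each tested gene of 6 lists (points) and the median of the list (bar), at each age. The 10 homeostatic genes have medians of 1.81 and 0.16 (0.95 in middle-aged mice without middle-aged naïve replicate 2), below the pan-myeloid medians of 4.13 and 3.53, and fitted values of genes with no naïve counts, such as Ccr2 in young mice, depend on the count added before the log and set no size.

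Among the 10 genes, levels went together to different degrees. Over the 6 injured pools Olfml3 and Fcrls had a Pearson r of 0.98 and Tmem119 and Olfml3 of 0.95, while P2ry12 and Gpr34 had -0.63. Over the 6 naïve pools Cx3cr1 had 0.97 with both Olfml3 and Siglech, and Tmem119 and Sall1 had -0.51. These values are descriptions over pools of both ages that share their depth and middle-aged naïve replicate 2. Of all genes with a mean log2 CPM of at least 1, the nearest in pattern over the 12 pools was Golm1, itself of the wider homeostatic list, for both Olfml3 and Fcrls, each with a Pearson r of 0.996. For Cx3cr1 it was Wdr46 (0.99), for Gpr34 Cd74 (0.993), for P2ry13 Tifa (0.973) and for Sall1 Zbtb25 (0.963). The lowest nearest values were those of P2ry12, at 0.856 with 4933404O12Rik, and Slc2a5, at 0.893 with Itfg2. Each value is the highest over all genes compared, and it includes the difference between naïve and injured pools. Over the 6 injured pools alone r was 0.08 for P2ry13 with Tifa and 0.50 for Gpr34 with Cd74. For the other nearest genes named here it was 0.78 to 0.99.

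The genomic positions bear on how surely the counts belong to each gene. On GRCm38 with GENCODE M21 names, P2ry13 lies on chromosome 3 from 59207892 to 59210882 and P2ry12 from 59216272 to 59262871, both on the minus strand and inside Med12l, which runs on the plus strand. Gpr34 lies on chromosome X from 13632089 to 13640858 on the plus strand, inside Cask on the minus strand. Fcrls lies on chromosome 3 from 87250758 to 87263738, and Siglech on chromosome 7 from 55768178 to 55778925. P2ry12 shares 9 of its 2546 exon bases with Med12l, Cx3cr1 shares 78 of 4505 with Gm33858, and the other 8 genes share none. Whether counting used the strand is not given in the sources used here, so reads of an intron of Med12l or Cask over these exons could not be told apart. Med12l was lower in middle-aged lesions (-0.57, edgeR adjusted p = 0.0465), was not called in young ones (-0.18, edgeR adjusted p = 0.539), and Cask was not called at either age.

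RefSeq start sites on GRCm38.p6 were available for 8 of the 10 genes, in 10 windows of 250 bases before a start. A set of 4 windows is shown because these genes span the range of responses, with Fcrls rising most, P2ry13 rising in young mice, P2ry12 not called and Siglech called lower in middle-aged mice and not called in young mice. Each is written 5′ to 3′ on the strand of its gene, all on the minus strand but Siglech, and capitals mark GAGGAA, the core letters bound by the myeloid factor PU.1, and TGTGGT, those bound by RUNX factors, or the reverse complement of either.
Fcrls, chr3:87263525-87263774: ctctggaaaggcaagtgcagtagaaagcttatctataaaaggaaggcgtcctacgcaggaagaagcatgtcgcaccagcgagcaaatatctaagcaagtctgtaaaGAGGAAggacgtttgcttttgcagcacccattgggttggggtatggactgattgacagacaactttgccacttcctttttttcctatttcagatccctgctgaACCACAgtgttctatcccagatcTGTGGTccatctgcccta
P2ry13, chr3:59210883-59211132: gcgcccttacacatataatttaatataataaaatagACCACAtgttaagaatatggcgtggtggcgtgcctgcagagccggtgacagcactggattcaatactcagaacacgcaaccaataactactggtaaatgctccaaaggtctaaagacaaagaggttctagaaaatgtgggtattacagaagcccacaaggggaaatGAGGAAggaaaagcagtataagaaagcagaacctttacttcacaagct
P2ry12, chr3:59262986-59263235: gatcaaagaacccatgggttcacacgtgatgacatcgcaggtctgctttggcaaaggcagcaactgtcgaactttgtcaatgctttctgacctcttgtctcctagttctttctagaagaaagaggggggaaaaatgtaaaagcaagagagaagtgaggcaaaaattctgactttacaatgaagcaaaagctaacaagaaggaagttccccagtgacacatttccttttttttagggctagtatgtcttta
Siglech, chr7:55767934-55768183: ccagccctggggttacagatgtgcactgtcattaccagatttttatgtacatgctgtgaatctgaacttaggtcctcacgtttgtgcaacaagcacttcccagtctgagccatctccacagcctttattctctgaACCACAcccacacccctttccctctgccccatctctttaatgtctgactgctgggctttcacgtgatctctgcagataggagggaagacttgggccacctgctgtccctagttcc

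Both strands were searched. GAGGAA was found in 2 of the 10 windows, those of Fcrls and P2ry13, and in 23.3% of 32851 windows of the same length. TGTGGT was found in 4 of the 10, those of Fcrls, P2ry13, Siglech and Cx3cr1, and in 4614 of the 32851 windows. The SMAD letters CAGAC were found in 6 of the 10, against 42.2%, and the AP-1 letters TGANTCA in none of the 10, against 6.75%. The genes that rose in young lesions thus include windows with and without GAGGAA, since Cx3cr1 and Olfml3 have none. A match is a description of these letters in this window and no evidence of binding.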

How the data were processed

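Laser-captured spinal cord white matter RNA from 4 groups of 3 pools (5 mice each) was sequenced. Per the study's text, RNA was amplified by REPLI-g as libraries were made. Per the labels and the submitters' processing notes, the authors checked reads with FastQC 0.11.4, mapped them to GRCm38 with TopHat2 2.0.10 and Bowtie 1.1.2 and counted them with featureCounts, and the deposited values are raw counts per gene. The strand setting and annotation release are not given in the sources used here. Pools were grouped by the labels.

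Genes were filtered with filterByExpr (15866 of 46078 kept), scaled by TMM and fitted over all 12 pools with edgeR 4.0.16 (R 4.3.3) quasi-likelihood tests, 1 term a group, with Benjamini-Hochberg adjustment and a threshold of 0.05. The study used DESeq2, run here as an alternative (1.42.0). Intervals are 95%. Ratios to the pan-myeloid sum had 0.5 counts added before the log2, and that of Fcrls was tested by exact permutation. Scripts were tested on simulated data. Other alternatives were library scaling, low-count filters, a replicate block, the compared pools alone and each pool left out.

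The members and gene lists were chosen with earlier results of these data known. All 10 members are named, and at most 4 genes of each other list, the 2 highest and 2 lowest in young mice, except receptor relatives, host genes and the cell type genes Ccr2, Ly6d, Klk1, Ccr9, Irf7, Bst2 and Tcf4, named after their values were seen. Some genes that this rule selects are not reported here. Pools of separate mice are the replicates, so p-values measure the spread between pools. Counts carry no molecular identifiers, and the binomial interval covers counting error only.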

Additional observations from a re-analysis of the deposited data

How the results depend on the processing

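The 14 called injury effects of single genes kept their direction in 280 of 280 alternative values (20 settings for each) and their call in 276, the 4 losses being those of Sall1 in young mice. Over the 8 other processing settings, genes called higher in young lesions ranged from 6 to 7, with P2ry12 called in 2 of the 8. Over all genes these calls ranged from 4275 to 5380. With libraries scaled by their totals the young genes called lower went from 1 to 0, Siglech in young mice from -0.03 to 0.17 and Tmem119 in middle-aged mice from -0.02 to 0.11. Genes called higher by age in naïve mice went from 3 to 6 with DESeq2, 6 with no filter and 0 with the naïve pools alone. Over all genes these calls went from 321 to 600, 717 and 26. Genes called for a lower injury effect in middle-aged mice went from 0 to 3 with DESeq2 and 6 with no filter. Over all genes they went from 13 to 144 and 248. Genes called lower by age in lesions went from 0 to 1, P2ry12 (-0.43, adjusted p = 0.0419), with the injured pools alone. Over all genes they went from 144 to 493. Genes above the pan-myeloid scale went from 1 to 0 in young mice without Ctss in the reference and from 0 to 1 over both ages without Cd68. The cause was not tested. With the replicate number as a replicate block, Tmem119 in middle-aged mice was 0.14, P2ry13 by age in naïve mice was called (adjusted p = 0.0499) and Cx3cr1 was not (adjusted p = 0.061), and the counts of calls in each comparison were as without it. Same-numbered pools had correlations of their deviations from the group means of -0.113 to 0.153, and the numbers do not pair the pools.

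With each pool left out in turn, genes called lower in young lesions ranged from 0 to 1, genes called in middle-aged lesions from 4 to 6 higher and from 3 to 4 lower, genes called higher by age in naïve mice from 1 to 7, genes called for a lower injury effect in middle-aged mice from 0 to 1 and genes above the pan-myeloid scale over both ages from 0 to 1. The 7 came without middle-aged naïve replicate 1, and the 1 without young naïve replicate 1 or 2. Over all genes the same fits gave 3551 to 4696 lower in young lesions. In middle-aged lesions they gave 4217 to 4933 higher and 4037 to 4736 lower. By age in naïve mice 136 to 484 were higher, and 2 to 35 had a lower injury effect in middle-aged mice. The injury effect ranged from -0.19 to 0.12 for Siglech and -0.035 to 0.31 for Slc2a5 in young mice and from -0.38 to 0.87 for Tmem119 in middle-aged mice, so their sign is not set. Sall1 ranged from -0.29 to 0.13 by age in naïve mice, and its difference of injury effects from -0.34 to 0.092. Counts of 23 to 84 a pool limit Slc2a5 most.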
